A study of Mus musculus with 23 samples.

Results

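The genes described here encode the enzymes of glycolysis, of the conversion of pyruvate to lactate or acetyl-CoA, and of the pentose phosphate pathway, together with the regulator Hif1a. The 40 members were listed by gene symbol, and each was found in the table of 35645 genes. A filter on low counts left 17124 genes for testing, among them 39 members. Eno2, the enolase isozyme typical of neurons, did not pass. It held a count in 3 of 15 libraries, at most 1.63 CPM (counts scaled to a common library total).

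Glycolysis splits glucose into pyruvate, with phosphofructokinase as its main point of control. Pyruvate is then reduced to lactate by lactate dehydrogenase or passed into mitochondria by the pyruvate dehydrogenase complex, which pyruvate dehydrogenase kinases switch off. The pentose phosphate pathway branches off at glucose-6-phosphate and makes NADPH and ribose. Activated lymphocytes are known for high rates of glycolysis and lactate production, and resting ones for lower rates.

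Type 1 innate lymphoid cells (ILC1s) reside in tissues such as the liver, and natural killer (NK) cells circulate. Cells were sorted from mouse liver with reporters of granzyme C, a protease of cytotoxic granules, and of the receptor gene S1pr5. DP cells were ILC1s with present granzyme C and the fate-map mark of its expression (GzmC+GzmcFM+, 4 libraries, mice 3 to 6). FMSP cells were ILC1s that carried the mark but no present granzyme C (GzmC-GzmcFM+, 4 libraries, mice 3 to 6), and DN cells were ILC1s with neither (GzmC-GzmcFM-, 3 libraries, mice 2, 4 and 6). NK cells were S1pr5eGFP+ (4 libraries, mice 1, 4, 5 and 6). Each RNA library held the cells of 1 population from 1 of 6 mice. Strain, age, sex and treatment are not given in the sources used here, nor is it stated which mice carried which reporter alleles. A second assay, ATAC-seq, counted reads in open chromatin of liver ILC1s, liver NK cells, salivary gland ILC1s and spleen NK cells, with 2 libraries of 50000 cells each. For these libraries the sample labels name the reporters as the gate, while the design text names CD49a and CD49b.

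RNA libraries totalled 51641248 to 73309063 counts and ATAC libraries 5609587 to 26944890 counts in peaks. The separation of ILC1s from NK cells was visible in the RNA. Cxcr6, a liver residency receptor, ranged from 576 to 1642 CPM in the 11 ILC1 libraries, against 1.35 to 6.60 CPM in the 4 NK libraries. The gates of DP, FMSP and DN cells were not checked in the RNA here. Ncr1, which encodes the shared receptor NKp46, was at 729.6 CPM or more in all 15. The 4 libraries of mice 1 to 3 (DP and FMSP of mouse 3, DN of mouse 2, NK of mouse 1) stood apart from the 11 of mice 4 to 6 on the leading principal component, which held 25.9% of the variance. Values within mice 4 to 6 are therefore given beside the pooled ones. DN of mouse 2 and FMSP of mice 5 and 6 had the highest summed levels of 20 hepatocyte markers, at 1102 to 2551 CPM, against 176 to 413 CPM in the other 8 ILC1 libraries and 78.2 to 234 CPM in NK cells.

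The promoter windows of the 3 members that passed the test in the pooled RNA are shown because the factor encoded by the member Hif1a binds the letters ACGTG and GCGTG, and because all 3 windows lay inside a peak of open chromatin. They are the 250 bases before the RefSeq start on build GRCm38.p6, read 5′ to 3′ on the gene's strand, at chr2:71872974-71873223 (plus strand) for Pdk1, chr6:142507958-142508207 (minus strand) for Ldhb and chr13:6648772-6649021 (minus strand) for Pfkp. Capitals mark GCGTG.
Pdk1: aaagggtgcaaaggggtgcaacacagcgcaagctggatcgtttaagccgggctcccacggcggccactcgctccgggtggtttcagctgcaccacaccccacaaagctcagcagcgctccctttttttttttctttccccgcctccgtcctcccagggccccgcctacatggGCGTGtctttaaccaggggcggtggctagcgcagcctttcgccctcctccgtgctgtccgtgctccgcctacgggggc
Ldhb: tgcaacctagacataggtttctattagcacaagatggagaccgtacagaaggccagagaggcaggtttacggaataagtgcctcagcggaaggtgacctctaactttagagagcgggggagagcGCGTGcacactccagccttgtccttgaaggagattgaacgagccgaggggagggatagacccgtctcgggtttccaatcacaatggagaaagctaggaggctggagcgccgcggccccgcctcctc
Pfkp: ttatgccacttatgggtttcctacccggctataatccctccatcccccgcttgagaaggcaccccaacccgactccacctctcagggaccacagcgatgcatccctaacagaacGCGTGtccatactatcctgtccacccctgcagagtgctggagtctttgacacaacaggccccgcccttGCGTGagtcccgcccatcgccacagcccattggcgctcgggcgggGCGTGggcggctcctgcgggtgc
The Pdk1 window held GCGTG once, 78 bases before the start, and the Ldhb window once, at 126 bases. The Pfkp window held it 3 times, at 136, 68 and 23 bases. None of the 3 held ACGTG or the E-box CACGTG, which itself contains ACGTG. With both strands searched, ACGTG or GCGTG occurred in 43 of 60 windows of the 40 members (71.7%), against 38.6% of 32851 windows of all genes. The separate shares were 51.7% of member windows against 28.2% of all windows for GCGTG, 30.0% against 16.6% for ACGTG, and 10.0% against 6.02% for CACGTG. A match of letters is a description and not a bound site.

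In ILC1s, Pdk1, a kinase that inhibits pyruvate dehydrogenase, and Ldhb, the lactate dehydrogenase subunit typical of heart, were higher than in NK cells, and Pfkp, the platelet-type phosphofructokinase, was lower. The same 3 genes passed in each ILC1 population. With the 3 ILC1 populations weighted equally (the ILC1 mean), 3 of 39 members passed edgeR's quasi-likelihood test at an adjusted p below 0.05, 2 higher and 1 lower, beside 5.92% of all genes tested (2.90% higher and 3.02% lower). All 3 had ILC1 libraries that did not overlap the NK libraries, as had 2.40% of all genes with ILC1s higher and 2.51% with ILC1s lower. In DP cells 3 of 39 passed (4.08% of all genes), in FMSP cells 3 (4.07%) and in DN cells 3 (2.99%). These comparisons share their NK libraries. The median log2 fold change of the members against NK cells was 0.06 for the ILC1 mean, -0.08 for DP, -0.11 for FMSP and 0.30 for DN. Over all genes tested it was 0.08, 0.03, 0.11 and 0.17 in the same order. Within mice 4 to 6 the median of the members was -0.13, -0.07, -0.21 and 0.017. Over all genes tested in these mice it was 0.016, 0, 0.11 and 0.025, so the higher median of DN cells was not seen there. In these bulk samples, fewer cells of a type and less RNA per cell cannot be told apart.

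In the libraries of mice 4 to 6, 40 members could be tested, and 10 passed for the ILC1 mean, 4 higher and 6 lower, beside 13.2% of all genes (5.47% higher and 7.72% lower). Groups did not overlap for 6.72% of all genes with ILC1s higher and 7.79% with ILC1s lower in these mice. The count was 7 in DP cells (9.17% of all genes), 8 in FMSP cells (8.94%) and 5 in DN cells (8.04%). With the mouse as a block and all libraries kept, the counts were 10 for the ILC1 mean (12.7%), 7 for DP (9.62%), 7 for FMSP (9.82%) and 5 for DN (6.96%). The 10 genes of the ILC1 mean were the same in both fits. They were Gpi1, Aldoa, Ldhb and Pdk1 among the higher, and Pfkl, Pfkp, Tpi1, Eno1, Ldha and G6pdx among the lower.

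**Figure D1:**
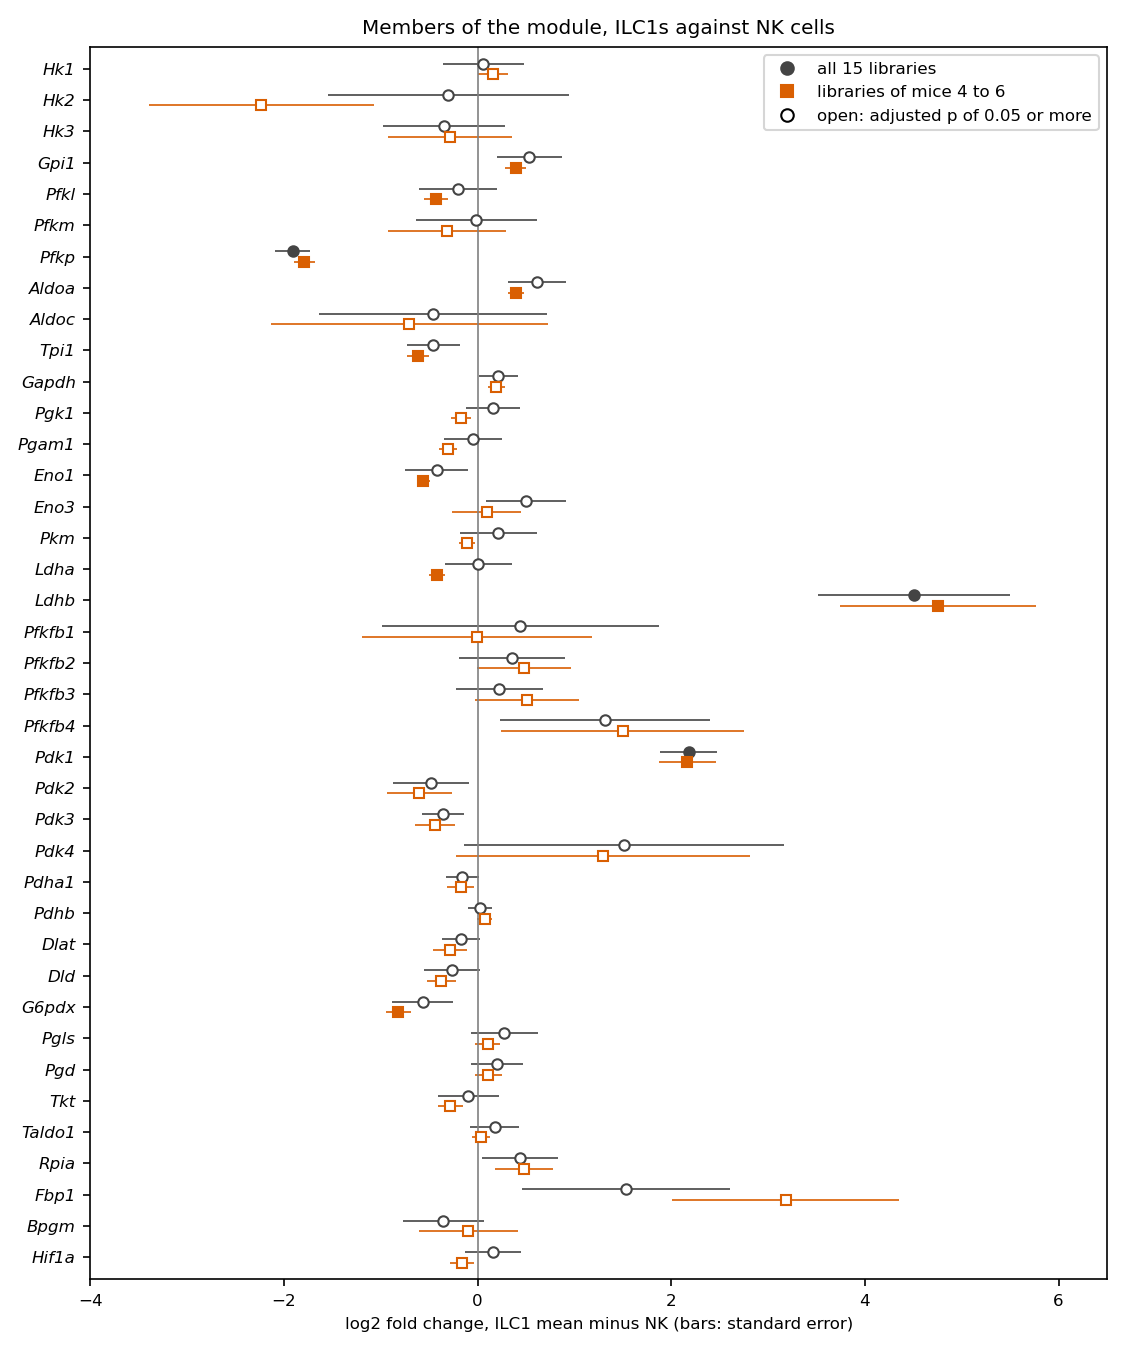
Log2 fold change of the 39 members tested, ILC1 mean minus NK (x axis), with bars for the standard error, in all 15 libraries (circles) and in the libraries of mice 4 to 6 (squares), where filled symbols have an adjusted p below 0.05. Pfkp lies at -1.91 and Ldhb at 4.51 in all libraries, while most core enzymes lie within 1 of 0 and have shorter bars in mice 4 to 6.

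Phosphofructokinase commits fructose-6-phosphate to glycolysis and has a liver (Pfkl), a muscle (Pfkm) and a platelet (Pfkp) form. Pfkp was at 149, 78.5, 104 and 107 CPM in DP cells, at 172, 115, 111 and 149 CPM in FMSP cells and at 129, 192 and 178 CPM in DN cells, against 688, 429, 475 and 448 CPM in NK cells. Every ILC1 library was below every NK library. The ILC1 mean fell by 1.91 ± 0.18 on the log2 scale (SE, adjusted p = 1.0e-05 by edgeR's quasi-likelihood test). By population the log2 fold changes were -2.22 ± 0.25 in DP (adjusted p = 6.3e-05), -1.90 ± 0.25 in FMSP (adjusted p = 2.28e-04) and -1.62 ± 0.27 in DN cells (adjusted p = 0.00319). In mice 4 to 6 the log2 fold change of the ILC1 mean was -1.79 ± 0.11 (adjusted p = 2.04e-06).

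Pfkl had a log2 fold change of -0.21 ± 0.40 for the ILC1 mean in all libraries (adjusted p = 0.879). Among mice 4 to 6, Pfkl was at 59.2 to 73.9 CPM in DP, 64.2 to 68.0 CPM in FMSP and 50.9 to 73.4 CPM in DN cells, against 85.4 to 90.6 CPM in NK cells. These ranges did not overlap, and the gene fell by 0.43 ± 0.12 there (adjusted p = 0.0389). The form with the larger difference was thus Pfkp, and its part in the family's counts differed as well. Of the counts of Pfkl, Pfkm and Pfkp together, Pfkp made up 55.3% ± 5.30 in DP (SD, n = 4), 60.7% ± 7.61 in FMSP (n = 4) and 60.4% ± 22.1 in DN cells (n = 3), against 81.7% ± 2.78 in NK cells (n = 4). The highest ILC1 share, 76.8% in DN of mouse 4, was just under the lowest NK share of 77.6% in mouse 1. These shares are of counts and not per length, so they are compared between libraries only. Pfkm reached at most 13.0 CPM in any library, with a log2 fold change of -0.01 ± 0.62 (adjusted p = 1.0).

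**Figure D2:**
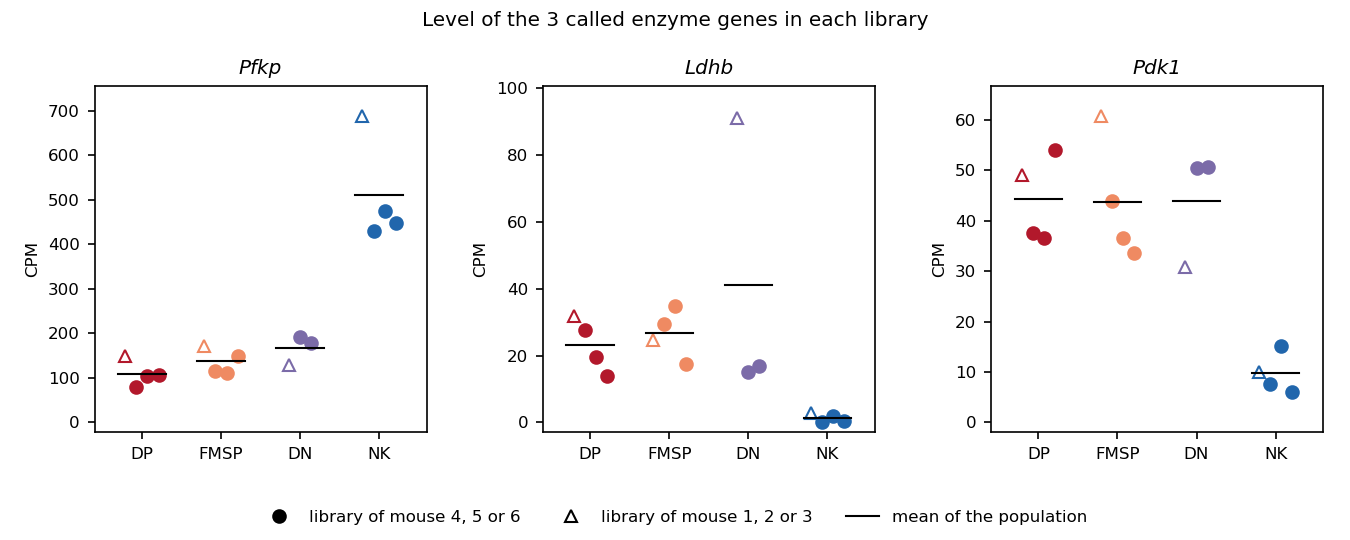
Level in CPM (y axis) of Pfkp, Ldhb and Pdk1 in each library of DP, FMSP, DN and NK cells (x axis), with filled circles for mice 4 to 6, open triangles for mice 1 to 3 and lines for population means. NK libraries lie above all ILC1 libraries for Pfkp and below them for Ldhb and Pdk1.

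Lactate dehydrogenase interconverts pyruvate and lactate, with Ldha encoding the muscle subunit and Ldhb the heart subunit. Ldhb was at 31.9, 27.5, 19.4 and 13.9 CPM in DP cells, at 24.6, 29.4, 34.9 and 17.5 CPM in FMSP cells and at 91.1, 15.01 and 16.97 CPM in DN cells, against 2.89, 0, 1.77 and 0.509 CPM in NK cells. All 11 ILC1 libraries exceeded all 4 NK libraries. The log2 fold change of the ILC1 mean was 4.51 ± 1.00 (adjusted p = 0.0118), and 4.75 ± 1.01 within mice 4 to 6 (adjusted p = 0.00899). In single populations it was 4.17 in DP (adjusted p = 0.0315), 4.36 in FMSP (adjusted p = 0.0262) and 4.99 in DN cells (adjusted p = 0.0206). Each of these 3 population calls was lost without NK of mouse 5 and without NK of mouse 6. The call in DP was also lost without DP of mouse 3, 4 or 5 (adjusted p up to 0.105 over the alternatives), that in FMSP without FMSP of mouse 4 or 5 (up to 0.0912) and that in DN without DN of mouse 2 (up to 0.163). Ldhb made up 3.22% ± 1.13 of lactate dehydrogenase counts in DP (SD, n = 4), 3.90% ± 1.65 in FMSP (n = 4) and 2.59% ± 0.372 in DN cells (n = 3), against 0.130% ± 0.122 in NK cells (n = 4). NK of mouse 4 held 0 Ldhb counts among 44396, for which the 95% Wilson interval reaches 0.00865%, counting error only.

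Some markers of T cells, neutrophils and B cells differed between ILC1s and NK cells, as did Ldhb, Pdk1 and Pfkp. Of 14 T cell markers, 9 were higher and 1 lower in the ILC1 mean, beside 2.90% and 3.02% of all genes tested. Their summed levels were 2074 to 3699.9 CPM in ILC1 libraries, against 844 to 1184 CPM in NK libraries. Cd3e, a defining T cell gene, was above 0 in every library, from 14.6 CPM in DP of mouse 5 to 536 CPM in DN of mouse 2, against 1.56 to 22.1 CPM in NK cells. DN of mouse 2, with the highest Cd3e, also had the highest Ldhb, at 91.1 CPM. DP of mouse 5, with the lowest Cd3e among ILC1 libraries, had 19.4 CPM of Ldhb, and NK of mouse 1, with 22.1 CPM of Cd3e, had 2.89 CPM. Summed levels of 11 neutrophil markers were 383 to 1265 CPM in ILC1 libraries, against 41.5 to 122 CPM in NK libraries, without overlap, and 1 of the 11 passed the test. That gene, Mmp9, was at 235 to 1029.6 CPM in ILC1 libraries, against 0.843 to 12.7 CPM in NK libraries, and so made up most of the sum in 11 of 11 ILC1 libraries. Summed levels of 8 B cell markers were 581 to 1245 CPM in ILC1 libraries, against 299 to 759 CPM in NK libraries, and 1 of the 8, Ighm, passed. Summed macrophage markers overlapped, at 43.6 to 1585 CPM in ILC1 libraries, against 46.1 to 277 CPM in NK libraries. Summed red cell markers overlapped too, at 454 to 11955 CPM in ILC1 libraries, against 854 to 8952 CPM in NK libraries. The part of T cells, neutrophils and B cells in the differences of Ldhb, Pdk1 and Pfkp was not tested.

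Ldha, the major subunit by counts in every library, had a log2 fold change of 0.01 ± 0.34 for the ILC1 mean over all libraries (adjusted p = 1.0). In mice 4 to 6 Ldha was at 554, 657 and 671 CPM in DP cells, at 544, 601 and 607 CPM in FMSP cells and at 654 and 649 CPM in DN cells, against 723, 903 and 854 CPM in NK cells. There the ILC1 libraries did not overlap the NK libraries, and Ldha fell by 0.42 ± 0.09 (adjusted p = 0.00728, and 0.00714 with the mouse block). DN of mouse 2 held 2965 CPM of Ldha. Without that library alone the log2 fold change was -0.38, with an adjusted p of 0.336.

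**Figure D3:**
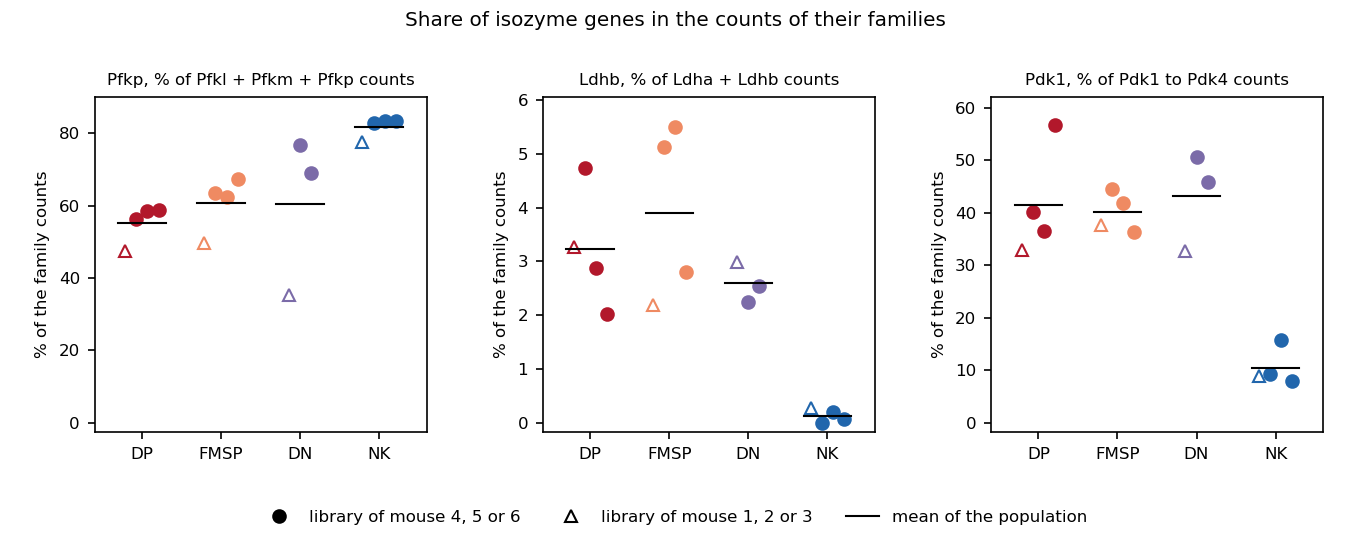
Share in % (y axis) of Pfkp among phosphofructokinase counts, of Ldhb among lactate dehydrogenase counts and of Pdk1 among pyruvate dehydrogenase kinase counts in each library, by population (x axis), with open triangles for mice 1 to 3 and lines for means. Mean Pdk1 shares are 40.2% to 43.2% in the ILC1 populations and 10.4% in NK cells.

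Pyruvate dehydrogenase kinases phosphorylate the pyruvate dehydrogenase complex and so hold pyruvate back from the tricarboxylic acid cycle. Pdk1 was at 49.1, 37.7, 36.5 and 54.0 CPM in DP cells, at 60.8, 43.9, 36.5 and 33.6 CPM in FMSP cells and at 30.8, 50.6 and 50.7 CPM in DN cells, against 10.0, 7.64, 15.2 and 6.03 CPM in NK cells. The lowest ILC1 library held more than the highest NK library. The log2 fold change was 2.18 ± 0.29 for the ILC1 mean (adjusted p = 2.10e-04), with 2.19 in DP (adjusted p = 6.36e-04), 2.17 in FMSP (adjusted p = 7.61e-04) and 2.18 in DN cells (adjusted p = 0.00196). For mice 4 to 6 the ILC1 mean was 2.17 ± 0.30 above NK cells (adjusted p = 5.46e-04). Among the counts of the 4 kinase genes, Pdk1 held 41.6% ± 10.5 in DP (SD, n = 4), 40.2% ± 3.77 in FMSP (n = 4) and 43.2% ± 9.28 in DN cells (n = 3), against 10.4% ± 3.55 in NK cells (n = 4).

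The other kinases did not pass the test. Pdk2 had a log2 fold change of -0.48 ± 0.39 (adjusted p = 0.630) and Pdk3 of -0.36 ± 0.22 (adjusted p = 0.451) for the ILC1 mean. Pdk4, the kinase induced by fasting in liver and muscle, stayed at or below 1.62 CPM in every library. The subunit genes of the complex itself gave log2 fold changes of -0.16 ± 0.17 for Pdha1 and 0.03 ± 0.12 for Pdhb, which encode the dehydrogenase, -0.17 ± 0.19 for Dlat, the acetyltransferase, and -0.27 ± 0.29 for Dld, the lipoamide dehydrogenase. None of the 4 had an adjusted p below 0.749.

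At the entry to glycolysis, hexokinase phosphorylates glucose. Hk1, the form found in most tissues, was at 86.3 to 332 CPM in DP, 112 to 436 CPM in FMSP and 96.4 to 139 CPM in DN cells, against 97.9 to 285 CPM in NK cells (log2 fold change 0.06 ± 0.42, adjusted p = 0.980). Hk2, the form induced in activated and tumour cells, was at most 1.44 CPM in DP and 0.765 CPM in FMSP cells, against 0.649 to 2.66 CPM in NK cells. DN of mouse 2 stood out with 19.2 CPM of Hk2, where the other DN libraries had 0.246 and 0.473 CPM. Hk3, a form of myeloid cells, ranged from 0.600 to 24.3 CPM over the ILC1 libraries and from 4.70 to 22.1 CPM over the NK libraries. DP of mouse 3, the highest for Hk3, also had 743 CPM of summed macrophage markers. DP of mice 4, 5 and 6 had 93.9, 172 and 43.6 CPM of these markers, with 2.13, 6.15 and 10.2 CPM of Hk3. The 2 levels thus did not rank alike over the DP libraries, and the part of macrophages in the Hk3 level was not tested.

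Gpi1, which isomerises glucose-6-phosphate, had a log2 fold change of 0.53 ± 0.34 in all libraries (adjusted p = 0.484) and rose by 0.39 ± 0.11 within mice 4 to 6 (adjusted p = 0.0373). Aldoa, the aldolase of most tissues, had 0.61 ± 0.30 in all libraries (adjusted p = 0.312). Among mice 4 to 6 Aldoa was at 746, 776 and 713 CPM in DP cells, at 676, 651 and 597 CPM in FMSP cells and at 474 and 572 CPM in DN cells, against 439.6, 466 and 524 CPM in NK cells. DP and FMSP libraries lay above all NK libraries there, and DN libraries overlapped them. The rise within mice 4 to 6 was 0.40 ± 0.08 for the ILC1 mean (adjusted p = 0.00835), 0.63 ± 0.10 in DP (adjusted p = 0.00168) and 0.43 ± 0.10 in FMSP cells (adjusted p = 0.0178). Aldoc, the brain aldolase, stayed at or below 6.63 CPM.

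Pfkfb1 to Pfkfb4 encode the bifunctional enzymes that set the level of fructose-2,6-bisphosphate, the activator of phosphofructokinase. Their highest libraries held 4.86 CPM for Pfkfb1, 7.94 CPM for Pfkfb2, 27.6 CPM for Pfkfb3 and 20.1 CPM for Pfkfb4, and none of the 4 passed the test in either set of libraries. The fold changes of the ILC1 mean were positive for all 4 in the pooled fit, from 0.22 ± 0.45 for Pfkfb3 to 1.32 ± 1.09 for Pfkfb4.

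In the later steps of glycolysis, the ILC1 mean was lower for Tpi1 and Eno1 within mice 4 to 6 and passed for no gene in the pooled fit. Tpi1, triosephosphate isomerase, was at 146, 178 and 164 CPM in DP cells, at 131, 155 and 177 CPM in FMSP cells and at 204 and 160.1 CPM in DN cells, against 233, 244 and 284 CPM in NK cells. It fell by 0.62 ± 0.11 (adjusted p = 0.00417), compared with a pooled log2 fold change of -0.46 ± 0.27 (adjusted p = 0.450). Eno1, the enolase of most tissues, was at 946, 1002 and 990.3 CPM in DP cells, at 899, 942 and 918 CPM in FMSP cells and at 928 and 1039 CPM in DN cells, against 1262, 1484 and 1484 CPM in NK cells. For both genes all ILC1 libraries of mice 4 to 6 lay below the NK libraries. Eno1 fell by 0.56 ± 0.07 (adjusted p = 2.26e-04), against a pooled -0.42 ± 0.32 (adjusted p = 0.597). Each ILC1 population passed on its own in these mice, with log2 fold changes of -0.54 for DP, -0.62 for FMSP and -0.53 for DN.

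The other genes of this stretch did not pass. The log2 fold changes within mice 4 to 6 were 0.19 ± 0.09 for Gapdh, which oxidises glyceraldehyde-3-phosphate, -0.17 ± 0.10 for Pgk1, the phosphoglycerate kinase, -0.31 ± 0.10 for Pgam1, the phosphoglycerate mutase, and -0.11 ± 0.08 for Pkm, which makes pyruvate. Their adjusted p-values there ran from 0.0619 for Pgam1 to 0.472 for Pkm. Eno3, the muscle enolase, was at 4.37 to 16.9 CPM in ILC1 libraries, against 4.77 to 8.91 CPM in NK libraries. Several of these genes have processed pseudogenes in the mouse, and how reads shared with such copies were assigned is not given in the sources used here, so their levels carry that uncertainty.

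**Figure D4:**
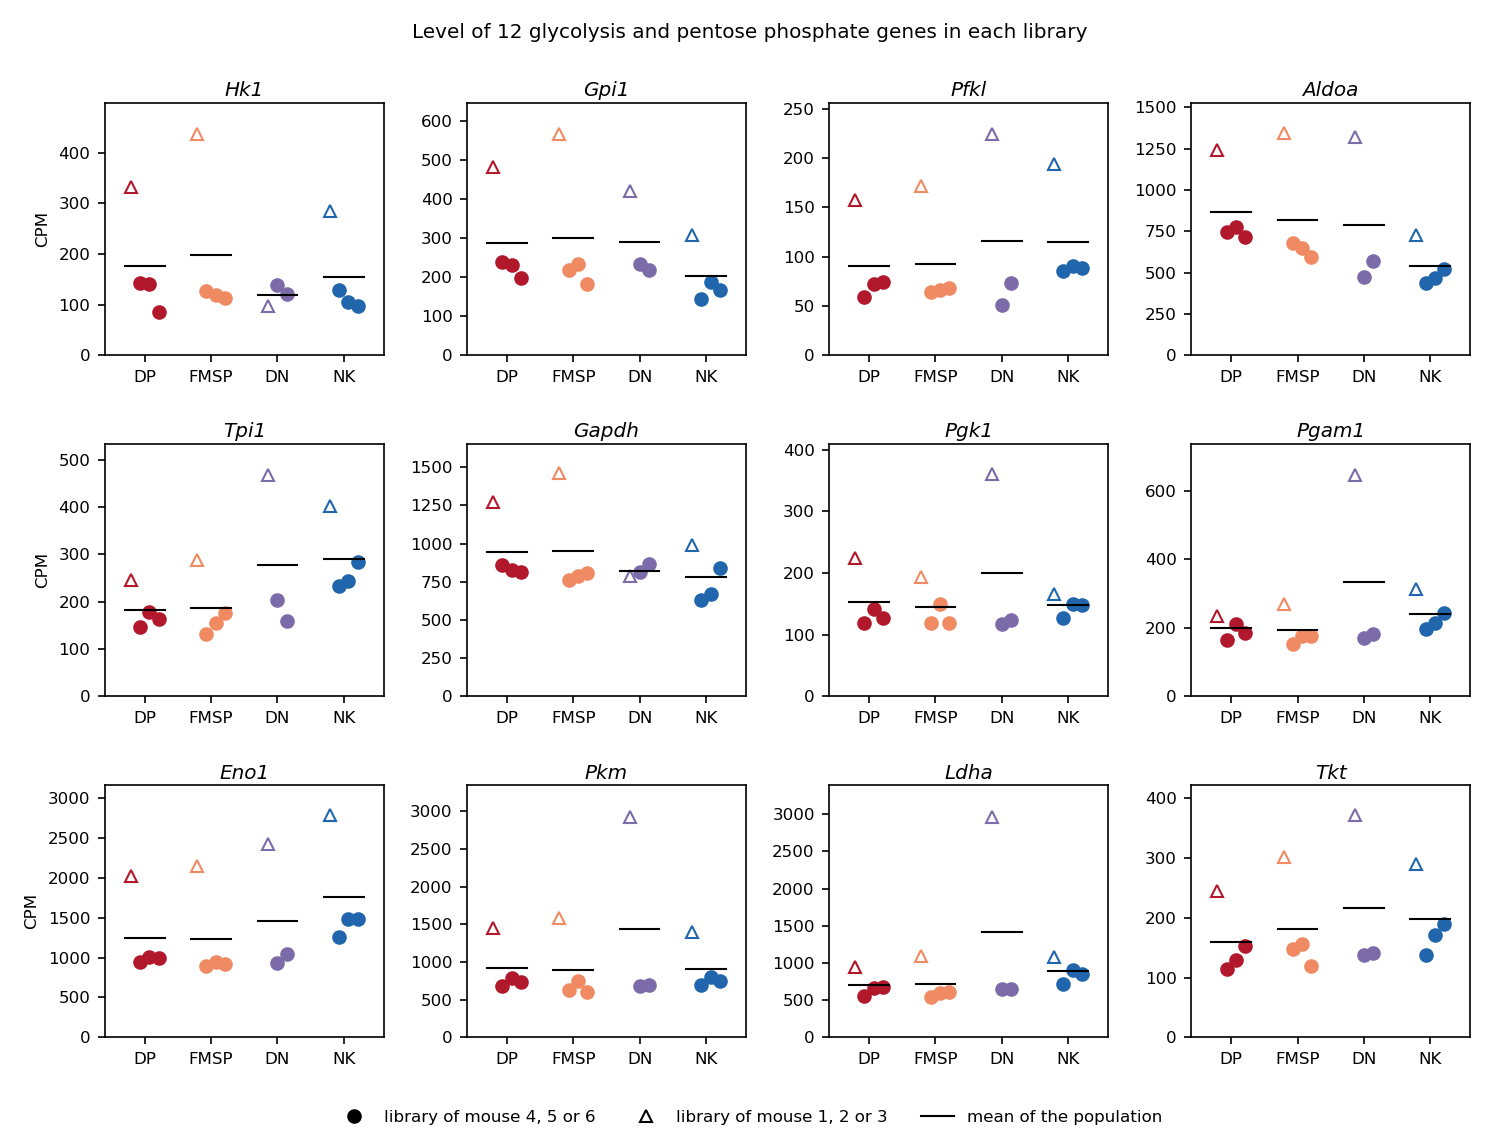
Level in CPM (y axis) of 12 enzyme genes in each library of DP, FMSP, DN and NK cells (x axis), with filled circles for mice 4 to 6, open triangles for mice 1 to 3 and lines for population means. Libraries of mice 1 to 3 sit highest in most panels, up to 2965 CPM for Ldha in DN of mouse 2, whereas those of mice 4 to 6 lie close together.

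In the libraries of mice 1 to 3 most members were at their population's highest level, as were most genes of the tricarboxylic acid cycle in 3 of these 4 libraries. DP of mouse 3 was the highest DP library for 27 of 39 members (69.2%), against 33.1% of all genes tested. FMSP of mouse 3 was highest for 24 (61.5%, against 31.4%), DN of mouse 2 for 27 (69.2%, against 41.2%) and NK of mouse 1 for 26 (66.7%, against 30.8%). The median log2 ratio to the later libraries of the same population was 0.68, 0.68, 0.89 and 0.60 over the members in that order, and -0.06, -0.21, 0.00 and -0.12 over all genes tested. Of 22 genes of the tricarboxylic acid cycle, 68.2% were highest in DP of mouse 3, 68.2% in FMSP of mouse 3, 77.3% in DN of mouse 2 and 45.5% in NK of mouse 1, with medians of 0.45, 0.46, 0.64 and 0.13. The difference between the members and that list was not tested. Pfkl was above the later libraries by 1.13 to 1.87 on this scale in all 4, and Pfkfb4 by 1.08 to 2.86. Rpia was below them in all 4, with log2 ratios of -0.33 to -1.22. Markers of some other cells stood high in the same libraries, to a degree that differed between lists and libraries. Of 12 macrophage markers, 11 were highest in DP of mouse 3, 6 in FMSP of mouse 3, 11 in DN of mouse 2 and 9 in NK of mouse 1, with median log2 ratios of 2.45, 1.15, 2.57 and 1.43. Of 8 B cell markers, 6 were highest in DP of mouse 3, 6 in FMSP of mouse 3, 2 in DN of mouse 2 and 7 in NK of mouse 1. Their median log2 ratios were 1.51, 1.22, -0.42 and 1.42. Of 20 hepatocyte markers, 9, 0, 20 and 4 were highest in the same order, with medians of 0.69, -2.22, 2.50 and 0.46. Of 7 endothelial markers tested, 1, 1, 0 and 1 were highest. DP and FMSP of mouse 3 and NK of mouse 1 held a count for 14592 to 15188 genes, while the remaining 12 libraries did so for 16193 to 20057. The part of other cells and of gene detection in the members' levels was not tested. Library, mouse and any difference in handling cannot be told apart here, since each of these mice gave at most 2 libraries.

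DN of mouse 2 went furthest. It held 2933 CPM of Pkm, 645 CPM of Pgam1, 360.1 CPM of Pgk1 and 138 CPM of Hif1a, which encodes the oxygen-regulated transcription factor of glycolytic genes. The other DN libraries held 682 and 698 CPM of Pkm, 169 and 182 CPM of Pgam1, 117 and 124 CPM of Pgk1 and 55.9 and 57.2 CPM of Hif1a. Gapdh, at 789 CPM, and Hk1, at 96.4 CPM, were below the other DN libraries. The same library was the highest DN library for 30 of 30 cell cycle genes and for all 20 hepatocyte markers, and the part of other cells in its values was not tested. Hif1a went the other way in the remaining early libraries, with 42.1 CPM in DP and 47.5 CPM in FMSP of mouse 3 and 32.4 CPM in NK of mouse 1. In mice 4 to 6 it was at 55.9 to 88.8 CPM in ILC1 libraries, against 71.1 to 78.0 CPM in NK libraries (log2 fold change -0.16 ± 0.12, adjusted p = 0.445).

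In the oxidative branch of the pentose phosphate pathway, G6pdx encodes glucose-6-phosphate dehydrogenase, its entry enzyme. In mice 4 to 6 G6pdx was at 66.9, 43.9 and 58.7 CPM in DP cells, at 45.7, 50.8 and 43.4 CPM in FMSP cells and at 36.4 and 35.2 CPM in DN cells, against 79.2, 77.0 and 84.1 CPM in NK cells. The groups did not overlap. The ILC1 mean fell by 0.82 ± 0.13 (adjusted p = 0.00144), compared with a pooled log2 fold change of -0.57 ± 0.31 (adjusted p = 0.394). The fall passed in FMSP cells (-0.78, adjusted p = 0.0104) and in DN cells (-1.17, adjusted p = 0.00298). With the mouse block it passed in DN cells (adjusted p = 0.0298) and not in FMSP cells (adjusted p = 0.131). The next enzymes, Pgls (lactonase) and Pgd (6-phosphogluconate dehydrogenase), had log2 fold changes of 0.11 ± 0.13 and 0.11 ± 0.14 within mice 4 to 6. In the non-oxidative branch Tkt (transketolase) had -0.28 ± 0.13, Taldo1 (transaldolase) 0.03 ± 0.10 and Rpia (ribose-5-phosphate isomerase) 0.48 ± 0.30, none of them past the threshold.

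Fbp1, which runs the phosphofructokinase step backwards in gluconeogenesis, was at 0.617 to 1.14 CPM in DP, 2.94 to 13.1 CPM in FMSP and 2.45 to 13.3 CPM in DN cells, against 0 to 3.90 CPM in NK cells. It did not pass in any comparison with NK cells, with a log2 fold change of 1.53 ± 1.07 for the ILC1 mean (adjusted p = 0.547). Its 3 highest libraries, DN of mouse 2, FMSP of mouse 6 and FMSP of mouse 5, were the 3 with the highest hepatocyte markers, whose part in the Fbp1 level was not tested. Bpgm, which makes the red cell metabolite bisphosphoglycerate, was at 12.5 to 83.98 CPM in ILC1 libraries, against 28.2 to 76.2 CPM in NK libraries (log2 fold change -0.35 ± 0.41, adjusted p = 0.778). Its 2 highest libraries, DN of mouse 6 and NK of mouse 1, had summed red cell markers of 9709 and 8952 CPM, and their part in the Bpgm level was not tested.

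Between the ILC1 populations no member passed in all libraries. DP against DN called 0 of 39 (0.0584% of all genes), FMSP against DN 0 (0.00584%) and DP against FMSP 0 (0.00584%). At an unadjusted p below 0.05 there were 4, 3 and 1 members in the same order, and DESeq2's Wald test called 0 members in each, beside 510, 233 and 224 of all genes. The median log2 fold change of the members was -0.24, -0.26 and -0.02, against -0.09, -0.02 and -0.02 over all genes tested. Within mice 4 to 6 it was -0.02, -0.09 and 0.05, against 0, 0.05 and -0.04 over all genes tested there. With mice 4 to 6 alone, 1 member passed, in DP against DN (0.210% of all genes). That gene was Pfkp, at 78.5, 104 and 107 CPM in DP cells, against 192 and 178 CPM in DN cells. It fell by 0.94 ± 0.16 (adjusted p = 0.0460), and the adjusted p was 0.0705 with the mouse block and 0.440 in all libraries, where the log2 fold change was -0.60 ± 0.25. FMSP cells of mice 4 to 6 held 115, 111 and 149 CPM of Pfkp, between these groups, with a log2 fold change of -0.56 ± 0.16 against DN (adjusted p = 0.390).

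Other genes of carbohydrate use were read from lists of the same kind, with 22 to 32 tested genes in the longer ones. Among 11 glucose and lactate transport genes tested, Slc2a8, a glucose transporter of internal membranes, was higher and Slc2a6 lower in the ILC1 mean. Of all genes, 2.90% were called higher and 3.02% lower. Slc2a8 was at 119, 64.2, 69.3 and 51.2 CPM in DP cells, at 121, 71.3, 42.8 and 42.3 CPM in FMSP cells and at 55.8, 48.3 and 17.3 CPM in DN cells, against 12.5, 5.90, 14.03 and 9.20 CPM in NK cells. The groups did not overlap. The log2 fold change was 2.52 ± 0.42 (adjusted p = 0.00131), and 2.27 ± 0.38 within mice 4 to 6 (adjusted p = 0.00208). Slc2a6 fell by 1.09 ± 0.27 (adjusted p = 0.0226). The main uptake transporter of lymphocytes, Slc2a1, had -0.25 ± 0.42 in all libraries (adjusted p = 0.854) and fell by 0.64 ± 0.19 within mice 4 to 6 (adjusted p = 0.0457). Bsg, the chaperone of lactate transporters, fell by 0.57 ± 0.09 within mice 4 to 6 (adjusted p = 0.00189). Emb, a related chaperone, passed in DN cells (4.07 ± 0.99, adjusted p = 0.0382). There DN of mouse 2 held 3004 CPM against 90.7 and 110.4 CPM in the other DN libraries, and within mice 4 to 6 its log2 fold change was 0.45 ± 0.56 (adjusted p = 0.703).

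Of 32 further carbohydrate enzymes tested, 1 passed for the ILC1 mean, beside 5.92% of all genes. Gpd2, the mitochondrial glycerol-3-phosphate dehydrogenase, fell by 1.01 ± 0.25 (adjusted p = 0.0224). In mice 4 to 6, Mpc1, a subunit of the mitochondrial pyruvate carrier, also fell, by 0.50 ± 0.12 (adjusted p = 0.0209). Of 22 genes of the tricarboxylic acid cycle and its side reactions, Me2, a mitochondrial malic enzyme, fell by 0.63 ± 0.15 (adjusted p = 0.0174), beside 3.02% of all genes called lower. For mice 4 to 6 alone, 6 of 22 were lower and 0 higher, beside 7.72% of all genes lower and 5.47% higher. They included Acly, which makes cytosolic acetyl-CoA (-0.71 ± 0.11, adjusted p = 0.00159), and Sdhb and Sdhd, subunits of succinate dehydrogenase (-0.41 ± 0.10 and -0.47 ± 0.11).

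Of 24 tested genes of the HIF pathway and its known targets, 0 passed for the ILC1 mean in all libraries by edgeR, beside 5.92% of all genes. In the later mice 3 passed, beside 13.2% of all genes. Rora rose by 2.17 ± 0.32 (adjusted p = 8.61e-04), Ero1l by 0.69 ± 0.19 (adjusted p = 0.0329), and Bnip3l fell by 0.28 ± 0.08 (adjusted p = 0.0451). With the mouse block, Bnip3l did not pass (adjusted p = 0.0865). Rora is known also as a lineage factor of innate lymphoid cells. Of 30 regulators of growth and nutrient sensing, Foxo3, a transcription factor restrained by AKT kinases, rose by 1.01 ± 0.26 (adjusted p = 0.0309) and Prkag1, a subunit of the energy sensor AMPK, fell by 0.76 ± 0.21 (adjusted p = 0.0433), beside 5.92% of all genes called. In mice 4 to 6 Foxo3 had an adjusted p of 0.0590, while Akt1 fell by 0.65 ± 0.09 (adjusted p = 5.27e-04) and Akt2 by 0.79 ± 0.12 (adjusted p = 8.78e-04). The median log2 fold changes of these lists for the ILC1 mean in all libraries were -0.25 for transport, 0.02 for further enzymes, -0.16 for the tricarboxylic acid cycle, -0.06 for the HIF list and -0.13 for the regulators, beside 0.08 over all genes.

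Open chromatin gave a second readout of the same genes. The authors' peak set assigned 89 of 51412 peaks to 36 members, 53 of them annotated as promoter, 16 as intergenic, 13 as intron and 7 as exon, with a median length of 1066 bases on build mm10. No peak was assigned to Aldoa, Tpi1, Eno3 or Pfkfb2. Between liver ILC1s and liver NK cells, 13 of 89 member peaks passed edgeR's quasi-likelihood test, 7 higher and 6 lower, beside 18.7% of all peaks tested (9.83% higher and 8.85% lower). The median log2 fold change was 0.03 over the member peaks and 0.00 over all peaks. Leaving out 1 liver library at a time left 6 to 13 member peaks called, with 6 without liver ILC1 replicate 2, 7 without liver NK replicate 1 and 8 without liver NK replicate 2.

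Of 8 promoter peaks of the 6 pentose phosphate genes, 4 were higher in liver ILC1s and 0 lower, beside 9.83% of all peaks, of any type, called higher. This grouping was made after the values were seen, so setting it beside all peaks is no test of the group. The other 4 peaks, at Tkt, Taldo1 and Pgls, had log2 fold changes of 0.17 to 0.24 and did not pass. The Rpia peak at chr6:70773547-70775098 had 24.2 and 21.8 CPM in liver ILC1s, against 12.9 and 11.6 CPM in liver NK cells (log2 fold change 0.90 ± 0.22, adjusted p = 6.38e-04). The Pgls peak at chr8:71591370-71592887 had 44.0 and 53.5 CPM in liver ILC1s, against 26.9 and 31.2 CPM in liver NK cells (0.75 ± 0.19, adjusted p = 0.00136). The replicates of both peaks did not overlap between the cell types, as was so for 55.4% of all peaks. The Rpia call held in every alternative, whereas the Pgls call was lost without liver NK replicate 1 and without liver ILC1 replicate 2.

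The G6pdx promoter peak at chrX:74428276-74429998 had 32.6 and 40.8 CPM in liver ILC1s, against 22.45 and 27.0 CPM in liver NK cells (0.58 ± 0.19, adjusted p = 0.0197). Its call was lost in DESeq2's test, without liver NK replicate 1 and without liver ILC1 replicate 2. In RNA G6pdx had gone the other way within mice 4 to 6. The Ldha promoter peak at chr7:46845307-46847456 had 44.9 and 63.4 CPM in liver ILC1s, against 37.1 and 32.8 CPM in liver NK cells (0.64 ± 0.19, adjusted p = 0.00976), a call lost without liver NK replicate 2 and without liver ILC1 replicate 2. A second Ldha peak annotated as promoter, at chr7:46838460-46839892, did not pass (0.07 ± 0.21, adjusted p = 0.861). Ldha RNA, too, had been lower in ILC1s within mice 4 to 6. An intron peak of Fbp1 was also higher (0.66 ± 0.19, adjusted p = 0.00574), and was not called without liver NK replicate 2. The remaining 2, a promoter peak of Pgd and an exon peak of Pgam1, are named here after their values were seen, at 0.54 and 0.64.

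Less open in liver ILC1s were 2 neighbouring intron peaks of Pfkfb3. The peak at chr2:11541981-11542797 had 5.38 and 5.95 CPM in liver ILC1s, against 12.5 and 13.5 CPM in liver NK cells (-1.19 ± 0.28, adjusted p = 3.23e-04), and this call held in every alternative. The peak at chr2:11540244-11541077 had 5.08 and 4.49 CPM in liver ILC1s, against 10.1 and 7.72 CPM in liver NK cells (-0.91 ± 0.31, adjusted p = 0.0250), a call lost without liver NK replicate 1 and without liver ILC1 replicate 2. An intron peak of Pfkm had 1.80 and 2.44 CPM in liver ILC1s, against 4.31 and 9.01 CPM in liver NK cells (-1.60 ± 0.42, adjusted p = 0.00161), a call lost without liver NK replicate 2. Intergenic peaks assigned to Rpia and Bpgm, named after their values were seen, were lower as well, at -0.62 and -0.79. The calls of these last 2 peaks, and of those at Pgd and Pgam1, held in 3 to 6 of 9 alternatives.

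For the 3 genes that differed in pooled RNA, the peak over the window printed above did not pass in the liver. At Pdk1 (chr2:71872612-71874287) liver ILC1s had 58.6 and 84.4 CPM, against 47.0 and 53.9 CPM in liver NK cells (0.51 ± 0.20, adjusted p = 0.0570). At Ldhb (chr6:142507184-142508558) they had 20.04 and 13.7 CPM, against 15.7 and 16.6 CPM in liver NK cells (0.05 ± 0.24, adjusted p = 0.916). At Pfkp (chr13:6646611-6649542) they had 67.6 and 87.8 CPM, against 87.8 and 99.6 CPM in liver NK cells (-0.27 ± 0.21, adjusted p = 0.406). A second Pfkp peak annotated as promoter, at chr13:6633270-6635882, was lower, with 64.9 and 82.3 CPM in liver ILC1s, against 88.9 and 134 CPM in liver NK cells (-0.59 ± 0.21, adjusted p = 0.0322). This call was lost without liver NK replicate 2 and without liver ILC1 replicate 1. The remaining Pfkp peaks annotated as promoter did not pass, with log2 fold changes of -0.26, -0.00154 and 0.27.

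**Figure D5:**
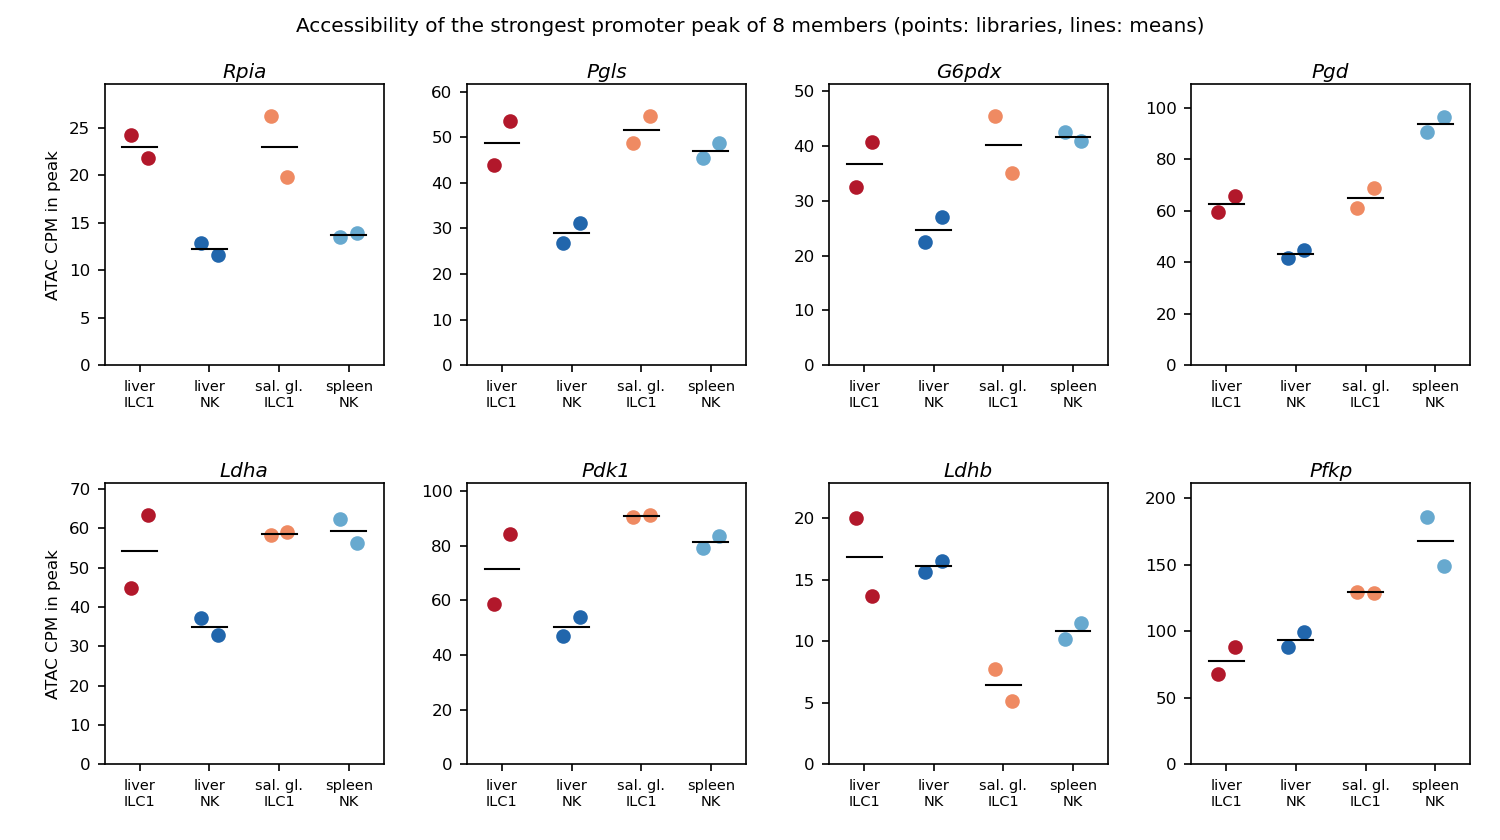
ATAC level in CPM (y axis) of the strongest promoter-annotated peak of 8 members in each library of liver ILC1s, liver NK cells, salivary gland ILC1s and spleen NK cells (x axis), with lines for means. Liver ILC1s lie above liver NK cells at Rpia, Pgls, G6pdx, Pgd, Ldha and Pdk1, overlap them at Ldhb and lie just below them at Pfkp.

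Between salivary gland ILC1s and spleen NK cells, which differ in organ and in cell type at once so that the 2 cannot be told apart, 35 of 89 member peaks passed, 8 higher and 27 lower, beside 48.2% of all peaks (22.0% higher and 26.2% lower). The median log2 fold change was -0.32 over the member peaks and -0.09 over all peaks. The Pfkm intron peak had 0.547 and 0.947 CPM in salivary gland ILC1s, against 5.08 and 8.99 CPM in spleen NK cells (-3.15 ± 0.41, adjusted p = 2.84e-13). An intergenic and an exon peak of Pdk4 were lower by 2.96 ± 0.39 and 2.01 ± 0.32 on the log2 scale. The intergenic Bpgm peak (-2.36 ± 0.31), 2 Pfkfb3 intron peaks (-1.40 ± 0.27 and -1.20 ± 0.24), a Pfkp intron peak (-1.64 ± 0.27) and the Pgam1 exon peak (-1.15 ± 0.21) were lower too. Pfkfb3 peaks went both ways: 3 others, named after their values were seen, were higher in salivary gland ILC1s, an intergenic peak at 1.36 ± 0.28, an exon peak at 1.00 ± 0.29 and an intron peak at 1.20 ± 0.25, and a further intron peak was lower at -0.69 ± 0.24. The Pgam1 exon peak had been higher in liver ILC1s. The second Ldha promoter peak, named after its values were seen, was lower in salivary gland ILC1s (-0.68 ± 0.19, adjusted p = 0.00151). At the Pdk1 promoter the log2 fold change was 0.16 ± 0.19 (adjusted p = 0.521), at the Ldhb promoter -0.77 ± 0.24 (adjusted p = 0.00462, lost without salivary gland ILC1 replicate 2), and the Rpia promoter peak was again higher, at 0.74 ± 0.20 (adjusted p = 7.41e-04, lost without salivary gland ILC1 replicate 1). Other pentose phosphate promoter peaks, named after their values were seen, were lower. They were at Pgd (-0.53 ± 0.19, adjusted p = 0.0137) and at Tkt (-0.52 ± 0.18, adjusted p = 0.00993, and -0.98 ± 0.27, adjusted p = 8.22e-04). The promoter peaks of G6pdx, Pgls and Taldo1 did not pass.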

How the data were processed

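The authors' RNA table, as deposited, holds expected counts of each gene, all of them integers. Salmon 1.6, DESeq2 and build mm10 are named in the submitters' processing notes, and the rule for shared reads, strand and length correction is not given in the sources used here. The ATAC file holds the authors' deposited read counts per peak, and Bowtie2, SAMtools, MACS2 and mm10 come from the same notes. In 26 entries a date replaced the symbol. They held 0.265% of counts and stayed in without a name.

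Both tables were tested in R 4.3.3 with edgeR 4.0.16 (quasi-likelihood, robust, TMM scaling, filterByExpr at a minimum count of 10), 1 mean per population over all libraries, 2-sided, with Benjamini-Hochberg adjustment over all 17124 genes or 51292 peaks. Within mice 4 to 6, 18125 genes were tested. The scripts were tested on simulated data. CPM are on TMM-adjusted totals, and fold changes are log2 with standard errors. Early libraries were set against the mean of the later ones on log2(CPM + 0.5). Alternatives were DESeq2 1.42.0, its size factors, library totals, no filter, the mouse as block, mice 4 to 6 only, omission of the 3 libraries high in hepatocyte markers, and omission of each library in turn.

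The mouse numbers pair the populations, because 1 number is 1 animal. Deviations from population means correlated with a median r of 0.198 over 16 pairs from 1 mouse (0.0724 to 0.646), against -0.0278 over 68 pairs from different mice. Mice 1 and 2 gave 1 library each, which the block fits exactly. Intervals for shares are Wilson at 95%. Sequences come from RefSeq tables of GRCm38.p6, the assembly of mm10, and gene lengths were not used. All 40 members could be named. Genes of other lists could be named if called, up to 4 per list and comparison, as could the 8 peaks with the smallest adjusted p and the promoter peaks of called members. Members, lists, alternatives and naming rules were chosen with earlier results of these data known.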

Additional observations from a re-analysis of the deposited data

Results flagged for a closer look

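In populations of 4 libraries, the gap between the highest or lowest library and the nearest other was compared with the whole range. Of 117 such sets of member levels, 28 exceeded Dixon's 95% limit, which chance exceeds in about 1 of 20. The 3 DN libraries were not tested. Of the 28 values, 26 belonged to FMSP or DP of mouse 3 or NK of mouse 1 and were the highest of their population.

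In DP of mouse 3 these were Hk2 at 1.44 CPM, Gpi1 at 482 CPM, Pfkl at 157 CPM, Pfkm at 7.07 CPM, Aldoa at 1242 CPM, Gapdh at 1269.9 CPM, Eno1 at 2026 CPM, Pkm at 1455 CPM and Taldo1 at 544 CPM. In FMSP of mouse 3 they were Hk1 at 436 CPM, Gpi1 at 567 CPM, Pfkl at 171 CPM, Aldoa at 1345 CPM, Gapdh at 1461 CPM, Eno1 at 2147 CPM, Pkm at 1581 CPM, Ldha at 1099.6 CPM, G6pdx at 118 CPM and Pgls at 231 CPM. In NK of mouse 1 they were Hk1 at 285 CPM, Pfkl at 194 CPM, Eno1 at 2783 CPM, Pkm at 1397 CPM, Pdk3 at 53.5 CPM, G6pdx at 121 CPM and Fbp1 at 3.90 CPM.

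NK of mouse 1 was the lowest NK library for Hif1a, at 32.4 CPM against 71.1 to 78.0 CPM in the others. Pdk4 in FMSP of mouse 5 was at 1.62 CPM, against at most 0.141 CPM in the other FMSP libraries.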

How the results depend on the processing

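The calls of Pfkp and Pdk1 against NK cells held in each alternative run, and that of Ldhb for the ILC1 mean in 22 of 22. Over these edgeR and DESeq2 runs the adjusted p of Ldhb for the ILC1 mean reached 0.0491, just under the threshold. For Pfkp and Pdk1 it reached 2.03e-04 and 0.00182 in that comparison. The counts of members called moved with the mice: the mouse block gave 10 for the ILC1 mean, 7 for DP, 7 for FMSP and 5 for DN, and mice 4 to 6 alone gave 10, 7, 8 and 5, with 1 for DP against DN. The cause was not tested. Leaving out 1 library at a time gave 3 to 3 for the ILC1 mean, 2 to 3 for DP, FMSP and DN, and 0 to 0 between ILC1 populations. For member peaks it gave 6 to 13 in the liver and 29 to 34 for salivary gland against spleen. Blocked by number, the ATAC counts were 13 and 35, and correlations over 12 pairs with a shared number had a median of 0.00714.

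Directions turned for Ldha in the ILC1 mean, from 0.01 to -0.40 with the block, -0.42 in mice 4 to 6, -0.30 without the 3 libraries high in hepatocyte markers, and -0.38 to 0.10 without 1 library (-0.38 without DN 2, -0.07 without DP 3, -0.10 without FMSP 3 or NK 4, -0.01 without NK 6). Without 1 library Pfkl for the ILC1 mean ranged from -0.52 to 0.16 and Eno1 in DN from -0.84 to 0.039, both turning without NK of mouse 1. Ldhb in DP lost its call with no filter and 5 omitted libraries, in FMSP and DN without the hepatocyte-high libraries. With library totals as the scale, the median over all genes moved from 0.08 to 0.21 for the ILC1 mean and from 0.17 to 0.37 for DN, and the 3 pooled calls held there. Near 0 CPM, as for Hk2, Pdk4 or Eno2, counts limit what can be seen.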
